A study of Mus musculus with 4 samples.

Results

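Erythroid genes that regulate red cell formation or build the red cell membrane and surface were followed in RNA-seq counts of mouse hematopoietic stem and progenitor cells (HSPC). The set was given as 30 gene symbols. Of these, 29 matched a symbol of the count tables, which list 24015 genes, and all 29 passed the filter on low counts. Protein 4.2 is listed there as Epb4.2, and Ahsp is not analysed here. The members were divided into 6 regulators, 7 enzyme and surface genes of progenitors, and 17 late genes of the membrane, its skeleton and final maturation, of which 16 were measured.

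The groups were 2 control libraries and 2 caNIK libraries. In caNIK mice, Vav-iCre, a Cre line active in blood cells, removes a stop cassette at the Rosa locus and so turns on a mutant NIK that TRAF3 cannot target. NIK is a kinase at the head of the non-canonical NF-kB pathway. Which of these alleles the controls carried, how the cells were gated, and the tissue and ages of the mice were not stated. Nothing ties each library to its own animal either, so the p-values measure the spread between these libraries, which may be technical.

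In the red cell lineage, erythropoietin binds its receptor on committed progenitors and signals through JAK2 and STAT5, while the transcription factors GATA1, its cofactor FOG1 (Zfpm1) and KLF1 turn on the genes of the lineage. As cells mature, they assemble a membrane in which the anion exchanger band 3 (Slc4a1) is tied through ankyrin and protein 4.2 to a spectrin skeleton. GATA1 and KLF1 bind DNA at GATA and CACCC elements.

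The stretches just upstream of member genes are shown because these are the places where those elements are usually sought. RefSeq windows on build GRCm38.p6 matched 22 of the 30 members. Windows were searched over 250 bases before the gene start, on both strands, for the GATA element (AGATAA and likewise AGATAG, but also TGATAA and likewise TGATAG) and the KLF1 element (CCNCNCCC, whose matches may overlap one another). Capitals mark every match of either element in the last 100 bases before the start, read 5′ to 3′ on the gene's strand. The first 4 genes are regulators, and the other 4 are late genes with a large (Tmod1, Sptb), an intermediate (Rhag) or a small (Kel) difference between groups.
Gata1 (chrX:7967911-7968010, minus strand): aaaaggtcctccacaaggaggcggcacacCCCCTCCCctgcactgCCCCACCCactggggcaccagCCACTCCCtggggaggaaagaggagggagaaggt
Klf1 (chr8:84901882-84901981, plus strand): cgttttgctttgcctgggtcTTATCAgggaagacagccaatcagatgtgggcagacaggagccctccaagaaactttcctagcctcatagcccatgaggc
Epor (chr9:21963577-21963676, minus strand): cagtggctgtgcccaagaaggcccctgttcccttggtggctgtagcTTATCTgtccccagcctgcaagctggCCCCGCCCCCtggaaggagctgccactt
Hemgn (chr4:46404184-46404283, minus strand): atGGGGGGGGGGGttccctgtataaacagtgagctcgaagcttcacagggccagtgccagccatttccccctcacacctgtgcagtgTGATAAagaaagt
Tmod1 (chr4:46039122-46039221, plus strand): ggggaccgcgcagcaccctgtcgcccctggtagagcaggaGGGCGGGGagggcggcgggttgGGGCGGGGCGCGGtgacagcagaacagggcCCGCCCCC
Sptb (chr12:76710548-76710647, minus strand): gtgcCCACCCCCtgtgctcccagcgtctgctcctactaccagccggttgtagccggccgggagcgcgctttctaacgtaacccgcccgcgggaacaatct
Rhag (chr17:40811049-40811148, plus strand): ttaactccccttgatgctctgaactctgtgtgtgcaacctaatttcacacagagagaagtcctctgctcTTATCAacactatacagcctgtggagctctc
Kel (chr6:41704326-41704425, minus strand): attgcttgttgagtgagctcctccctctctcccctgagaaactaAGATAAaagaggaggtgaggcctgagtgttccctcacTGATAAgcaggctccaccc

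A GATA element stood in the 250 bases of 13 of the 22 member windows (59.1%), against 27.1% of 27025 RefSeq genes, with the first listed window of each gene on both sides. Among late genes it was found in 9 of 13 windows, and among regulators in 3 of 5. Among progenitor enzyme and surface genes it was in 1 of 4 (25%, near the share of all genes). The KLF1 element was present in 14 of the 22 (63.6%), against 45.6% of those genes. It was in 6 of 13 late windows (46.2%, near the share of all genes), 4 of 5 regulator windows and 4 of 4 progenitor windows. Both elements stood together in 5 member windows (22.7%), among them those of Epor and Hemgn, against 8.28% of all RefSeq genes. Counting every listed window of a member, bases just after the start lay in an annotated transcript of the gene for 21 of 25. For Epor they did not. The 4 KLF1 matches of Hemgn overlapped one another in a single run of G. In this window Tmod1 held 4 matches of the KLF1 element and none of the GATA element, and Kel held 2 GATA matches and no KLF1 match. Whether the elements go with differences between groups was not tested. A match is a string of letters and not a measured binding site, and windows were not matched for base composition.

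Library totals lay between 18574452 and 23162766 counts. The symbol of the NIK gene, Map3k14, had 582 and 588 reads in control replicates 1 and 2 against 3305 and 3989 in caNIK replicates 1 and 2. Whether these reads came from the gene's own locus or from the mutant at the Rosa locus cannot be told from the counts. All 10 HSPC markers had reads in all libraries. At an adjusted p under 0.05 in the edgeR test described below, 1 was higher in caNIK (10%), 3 were lower (30%) and 6 did not pass. Over all tested genes 13.8% were higher and 8.21% lower. Cd34 and Hlf were among the 3 lower markers. The median member had a log2 ratio of replicate 2 to replicate 1 of 1.45 in control and 0.81 in caNIK, against 0.00 and -0.03 over all tested genes. Replicate 2 had the higher level for 27 of 29 members in control and 28 of 29 in caNIK, whereas over all tested genes these shares were 50.4% and 47.1%.

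Most members were higher in caNIK HSPC, and none passed as lower. Levels are CPM, counts relative to library size after TMM scaling (the trimmed mean of log ratios), differences are log2 fold changes of caNIK against control with their standard error (SE), and p-values are edgeR quasi-likelihood values adjusted over all 14191 tested genes. At an adjusted p under 0.05, 17 of the 29 members were higher and 0 were lower, against 13.8% higher and 8.21% lower over all tested genes. The median log2 fold change of the members was 1.98, against 0.00 for all tested genes. Both caNIK libraries lay above both controls for 26 members and below both for 2, Nfe2 and Apoe, and the groups overlapped for Ermap. The same no-overlap pattern was found for 33.3% of all tested genes upward and 31.6% downward. In bulk RNA, more cells of a type and more RNA per cell cannot be told apart.

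How many members passed depended on the libraries more than on the scaling. Leaving out caNIK replicate 2 left 10 members higher and 0 lower, all 10 among the 17, where 11.3% of all genes were then higher and 6.46% lower. Dropping caNIK replicate 1 gave 22 higher and 1 lower (12.2% and 9.45% of all genes). Dropping control replicate 2 gave 25 and 0 (13.4% and 6.48%), and dropping control replicate 1 gave 19 and 1 (12.0% and 5.78%). With DESeq2 there were 19 and 1 (16.4% and 10.4% of all genes). Median-of-ratios factors gave 17 and 0 (14.0% and 8.08%), and library totals 14 and 1 (12.7% and 9.37%). A filter of 1 read anywhere gave 23 and 1 (13.4% and 8.17%), 1 CPM in 2 libraries gave 16 and 1 (14.2% and 9.18%), and the replicate number as a block gave 26 and 1 (17.6% and 12.4%). The gene that passed as lower was Apoe when control replicate 1 was dropped and Nfe2 in each of the others.

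**Figure D1:**
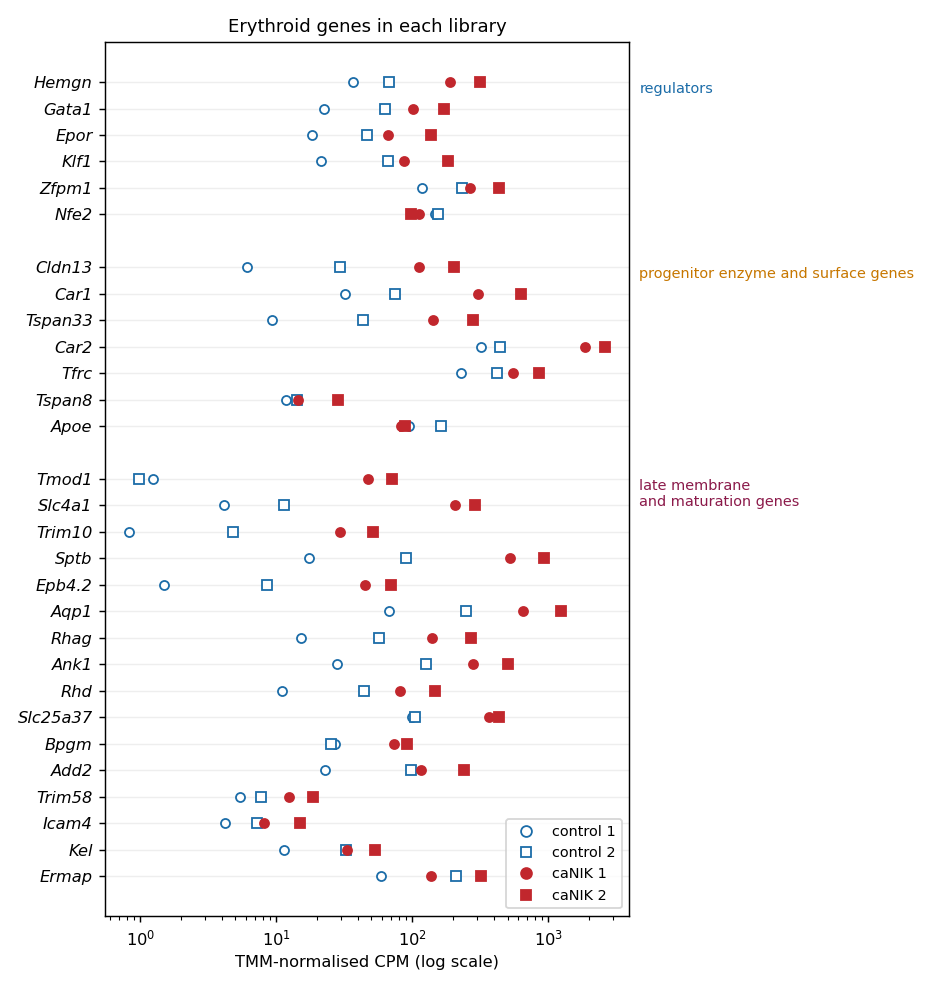
TMM-normalised CPM of the 29 members in each library on a log axis, grouped by role; open symbols are control and filled symbols caNIK, circles replicate 1 and squares replicate 2. Both caNIK libraries lie to the right of both controls for 26 members, and the groups overlap for Ermap.

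Among the regulators, Hemgn and Gata1 rose, 3 others had positive fold changes that did not pass, and Nfe2 had a negative one. Gata1, the master transcription factor of the lineage, was at 22.5 and 62.8 CPM in control replicates 1 and 2 and at 101 and 171 CPM in caNIK replicates 1 and 2. Its groups did not overlap, but each replicate 2 was the higher library. The log2 fold change was 1.67 ± 0.48 (SE; edgeR adjusted p = 0.0497), just inside the threshold. Klf1, which drives globin and membrane genes, was at 21.3 and 65.7 CPM in control and 87.1 and 184 CPM in caNIK. This is nearly the pattern of Gata1, and the difference of 1.64 ± 0.55 did not pass (edgeR adjusted p = 0.081). Epor, the erythropoietin receptor, was at 18.4 and 46.1 CPM in control and 66.4 and 137 CPM in caNIK, with 1.66 ± 0.49 (edgeR adjusted p = 0.055). Gata1 and Epor thus stood on opposite sides of the threshold with nearly equal fold changes.

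Hemgn, which encodes the nuclear protein hemogen, had 36.8 and 67.2 CPM in control and 189 and 312 CPM in caNIK. Its groups were well apart, and it rose by 2.27 ± 0.35, the largest log2 fold change among the regulators (edgeR adjusted p = 0.006). Zfpm1, the cofactor of GATA1, was at 119 and 233 CPM in control and 263 and 430.0 CPM in caNIK. Control replicate 2 came close to caNIK replicate 1, and the difference of 0.98 ± 0.36 did not pass (edgeR adjusted p = 0.1). Nfe2, a factor of erythroid and megakaryocytic genes, was at 147 and 154 CPM in control and 112 and 96.9 CPM in caNIK. Both caNIK libraries were lower, and replicates agreed closely within each group. The log2 fold change of -0.52 ± 0.15 missed the threshold in edgeR's test (adjusted p = 0.052) and passed as lower in DESeq2 (0.019), with library totals as the scaling (0.04), and with either other filter on low counts (0.042 and 0.048).

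Of 6 regulators, 2 passed as higher in edgeR's test (33.3%, against 13.8% of all tested genes). The median log2 fold change of the 6 was 1.65. The count past the threshold in either direction depended on the libraries. Leaving out a control gave 4 (replicate 1) or 5 (replicate 2), and leaving out a caNIK library gave 6 (replicate 1) or 1, Hemgn (replicate 2). The median fell to 1.06 when control replicate 1 was dropped and to 1.0 when caNIK replicate 2 was, and reached 2.54 when control replicate 2 was. With caNIK replicate 2 dropped, Gata1 had a log2 fold change of 1.23 (edgeR adjusted p = 0.16). It also did not pass with library totals as the scaling (0.058) or with a filter of at least 1 CPM in 2 libraries (0.0509).

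Enzyme and surface genes of progenitors divided into 4 that rose (57.1%, against 13.8% of all tested genes) and 3 that did not pass. Car2, a carbonic anhydrase of red cells that other tissues also express, was at 318 and 441 CPM in control and 1860.0 and 2604 CPM in caNIK. Both caNIK libraries lay well above both controls. Car2 rose by 2.56 ± 0.24 (edgeR adjusted p = 9e-04). Its isozyme Car1, an early erythroid marker, was at 31.9 and 74.5 CPM in control and 302 and 627 CPM in caNIK, and rose by 3.12 ± 0.49 (edgeR adjusted p = 0.0064). Cldn13, a claudin of mouse erythroid cells, was at 6.12 and 29.6 CPM in control and 111 and 203 CPM in caNIK. On the log2 scale the control libraries differed from each other more than the caNIK libraries did (2.27 against 0.87). The rise of 3.13 ± 0.68 passed (edgeR adjusted p = 0.02). Tspan33, a tetraspanin needed for normal red cell formation, was at 9.23 and 43.2 CPM in control and 141 and 278 CPM in caNIK, and rose by 2.99 ± 0.69 (edgeR adjusted p = 0.025).

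The transferrin receptor gene Tfrc, through which cells take up iron, was at 229 and 419 CPM in control and 548 and 848 CPM in caNIK. Its groups did not overlap, and the difference of 1.11 ± 0.32 missed the threshold (edgeR adjusted p = 0.054). Tspan8, another tetraspanin, was at 11.8 and 14.1 CPM in control and 14.4 and 28.3 CPM in caNIK. Only caNIK replicate 2 stood apart, and the difference was 0.72 ± 0.36 (edgeR adjusted p = 0.2). Apoe, the lipid carrier apolipoprotein E, which macrophages also express, was at 94.9 and 162 CPM in control and 82.1 and 88.0 CPM in caNIK. It was the other member with both caNIK libraries below both controls, at -0.59 ± 0.26 (edgeR adjusted p = 0.15), and passed as lower without control replicate 1 (-0.95; adjusted p = 0.012). Without caNIK replicate 2, Cldn13 and Tspan33 did not pass (edgeR adjusted p = 0.058 and 0.072), which left 2 of the 7.

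Among late genes, 11 of 16 rose (68.8%, against 13.8% of all tested genes). All 16 had a positive log2 fold change, against 7134 of the 14191 tested genes. The median of the 16 was 2.19. Tmod1, the tropomodulin that caps the short actin filaments of the membrane skeleton, was counted 24 and 23 times in control and 878 and 1477 times in caNIK. This was 1.24 and 0.98 CPM against 47.1 and 71.2 CPM, and here control replicate 2 was not the higher control. Tmod1 rose by 5.73 ± 0.33, the largest log2 fold change of the members (edgeR adjusted p = 2e-04). Slc4a1, the band 3 anion exchanger, was at 4.15 and 11.4 CPM in control and 206 and 291 CPM in caNIK. The lower caNIK library was far above the higher control, and the log2 fold change was 4.99 ± 0.48.

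The skeleton genes behaved unequally. Sptb, the beta spectrin of red cells, was at 17.4 and 90.1 CPM in control and 525 and 919 CPM in caNIK, and rose by 3.74 ± 0.73 (edgeR adjusted p = 0.014). Epb4.2, which links band 3 to the skeleton, was at 1.5 and 8.56 CPM in control and 44.5 and 69.9 CPM in caNIK, and rose by 3.49 ± 0.70 (edgeR adjusted p = 0.015). Ank1, the ankyrin that ties band 3 to spectrin, was at 28.0 and 125 CPM in control and 279 and 501 CPM in caNIK. In these 3 genes the control libraries were far apart, with replicate 2 above replicate 1 by 2.37, 2.51 and 2.16 on the log2 scale. Ank1 rose by 2.35 ± 0.65 (edgeR adjusted p = 0.045) and did not pass in DESeq2 (0.065), with library totals (0.054) or without caNIK replicate 2 (0.13). Add2, beta adducin, which caps actin at the spectrin junctions, was at 22.8 and 97.1 CPM in control and 115 and 240.5 CPM in caNIK. Control replicate 2 lay near caNIK replicate 1, and the difference of 1.57 ± 0.65 did not pass (edgeR adjusted p = 0.14).

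Channels and blood group proteins of the membrane ranged from clear rises to overlap. Aqp1, the water channel, was at 67.4 and 246 CPM in control and 646 and 1235 CPM in caNIK, and rose by 2.58 ± 0.61 (edgeR adjusted p = 0.026). Rhag, the Rh-associated glycoprotein, was at 15.1 and 57.3 CPM in control and 139 and 270.1 CPM in caNIK, and rose by 2.50 ± 0.61 (edgeR adjusted p = 0.03). Its partner Rhd was at 10.9 and 44.4 CPM in control and 81.2 and 146 CPM in caNIK, a difference of 2.03 ± 0.61 that did not pass (edgeR adjusted p = 0.058). Both genes thus had the same order of libraries, as did most members. Kel, the Kell blood group protein, was at 11.4 and 32.3 CPM in control and 33.2 and 52.9 CPM in caNIK, so that control replicate 2 nearly reached caNIK replicate 1 (0.98 ± 0.48; edgeR adjusted p = 0.2). Icam4, an adhesion molecule by which erythroblasts bind macrophages, was at 4.2 and 7.24 CPM in control and 8.16 and 14.9 CPM in caNIK (1.01 ± 0.45; edgeR adjusted p = 0.16). Ermap, which carries the Scianna blood group, was at 58.6 and 210 CPM in control and 136 and 319 CPM in caNIK. It was the member whose groups overlapped, with control replicate 2 above caNIK replicate 1 (0.76 ± 0.61; edgeR adjusted p = 0.42).

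Genes of late maturation included 2 with close replicates. Slc25a37, mitoferrin 1, which brings iron into mitochondria for heme, was at 99.0 and 105 CPM in control and 368 and 433 CPM in caNIK, and rose by 1.98 ± 0.16 (edgeR adjusted p = 0.00052). Bpgm, whose product 2,3-bisphosphoglycerate loosens oxygen from hemoglobin, was at 26.9 and 25.4 CPM in control and 73.4 and 91.2 CPM in caNIK, and rose by 1.65 ± 0.18 (edgeR adjusted p = 0.0015). For both the gap between groups was several times that between replicates. Trim10, a ubiquitin ligase family member of terminal erythroid cells, was at 0.83 and 4.77 CPM in control and 29.4 and 51.5 CPM in caNIK, and rose by 3.82 ± 0.72 (edgeR adjusted p = 0.012). Trim58, a ubiquitin ligase linked with loss of the nucleus, was at 5.45 and 7.71 CPM in control and 12.5 and 18.7 CPM in caNIK, and rose by 1.24 ± 0.35 (edgeR adjusted p = 0.048). Trim58 did not pass without control replicate 1 (0.16) or caNIK replicate 2 (0.18), or with library totals (0.058).

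Leaving out caNIK replicate 2 also ended the calls of Rhag (edgeR adjusted p = 0.093) and Aqp1 (0.076), and left 7 late genes. Without control replicate 2, the median of the late genes was 3.57. Late genes reached higher fold changes than regulators, with 5.73 against 2.27 at the top and medians of 2.19 and 1.65, but both sets ranged widely. The median of the progenitor enzyme and surface genes was above both, at 2.56. Members are not replicates, and differences between the sets were not tested.

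**Figure D2:**
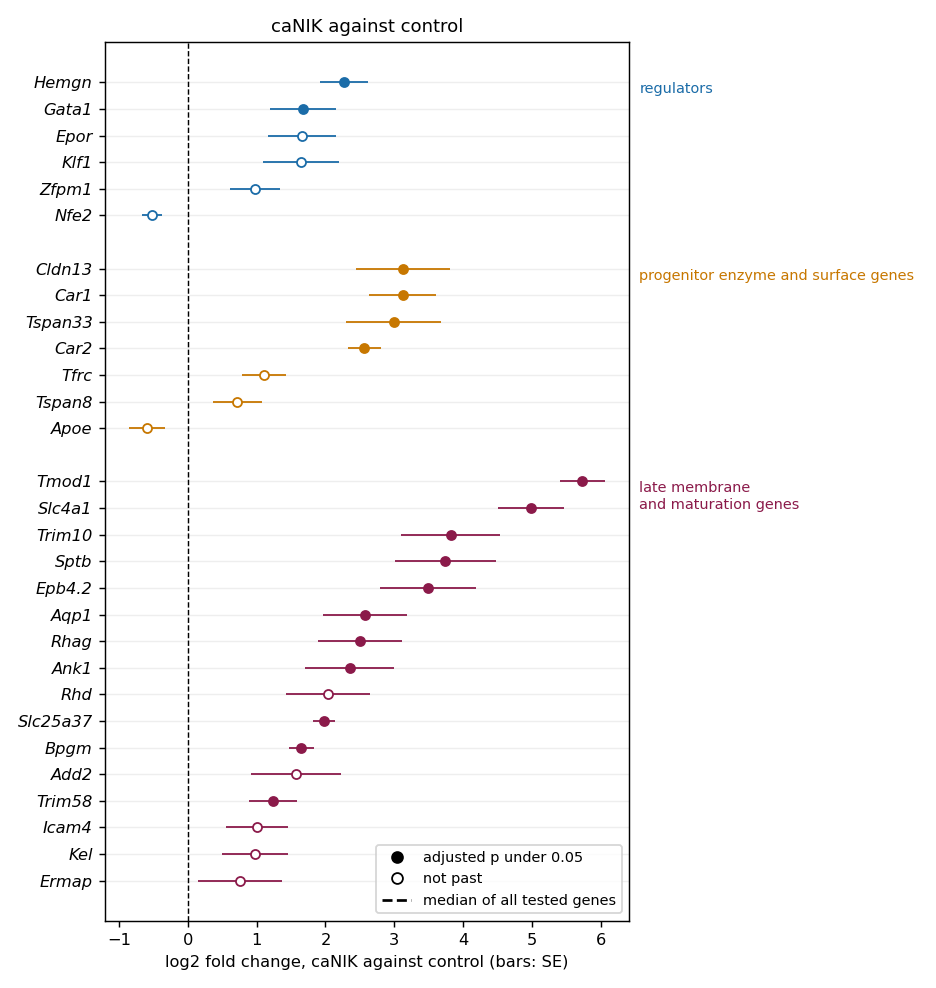
Log2 fold change of caNIK against control for the 29 members by role, with bars of 1 SE; filled points passed at an adjusted p under 0.05 and the dashed line is the median of all tested genes. Tmod1 and Slc4a1 are farthest to the right at 5.73 and 4.99, and Nfe2 and Apoe lie below 0.

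The gap between the control replicates differed among the members. Control replicate 2 exceeded replicate 1 by 2.02 to 2.52 on the log2 scale for Rhd, Add2, Ank1, Tspan33, Cldn13, Sptb, Epb4.2 and Trim10. It differed by 0.08 or less for Nfe2 and Slc25a37, by -0.09 for Bpgm and by -0.35 for Tmod1. The SE of the log2 fold change was 0.61 to 0.73 in the first set and 0.15 to 0.33 in the second, and is computed partly from these gaps. In caNIK the gaps were not the same, with 0.59 for Tmod1, 0.81 for Trim10 and 0.65 for Epb4.2.

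**Figure D3:**
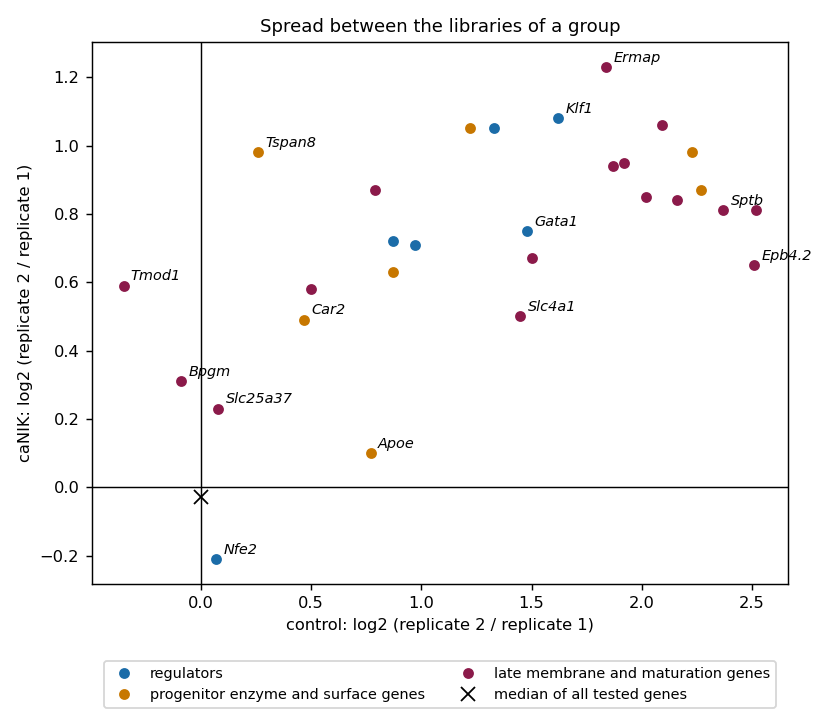
For each member, the log2 ratio of replicate 2 to replicate 1 in control (horizontal) and in caNIK (vertical), coloured by role, with a cross at the median of all tested genes. Members spread to the upper right, with medians of 1.45 and 0.81, while Tmod1, Bpgm, Slc25a37 and Nfe2 lie near or left of 0 on the control axis.

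To set late genes against regulators within each library, reads were also expressed per 100 Gata1 reads, a measure free of library scaling that was chosen after the values were seen. Gata1 had at least 433 reads in each library. On this measure Klf1 and Epor kept nearly the same proportion to Gata1 in all libraries. Klf1 had 94.9 and 105 reads per 100 Gata1 reads in control and 85.9 and 108 in caNIK. Epor had 82.0 and 73.5 in control and 65.4 and 80.4 in caNIK. Their groups overlapped, although Gata1 itself spanned 22.5 to 171 CPM.

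Several late genes were higher relative to Gata1. Slc4a1 had 18.5 and 18.1 reads per 100 Gata1 reads in control and 203 and 170.2 in caNIK, a ratio of geometric means of 10.2. The control libraries, which differed by 1.45 in Slc4a1 on the log2 CPM scale, were thus almost equal on this measure. Tmod1 had 5.54 and 1.56 in control and 46.5 and 41.7 in caNIK (ratio 15.0). Trim10 went from 3.70 and 7.6 to 29.0 and 30.1 (ratio 5.57), Sptb from 77.4 and 144 to 517 and 538 (5.01), and Epb4.2 from 6.70 and 13.6 to 43.9 and 40.9 (4.43). Among progenitor genes, Cldn13, Tspan33 and Car1 had ratios of 3.19, 2.82 and 2.54. Aqp1, Rhag, Ank1, Car2, Rhd and Hemgn lay between 1.98 and 1.39, also with no overlap.

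Other members were lower relative to Gata1, as were most genes. The median ratio over all tested genes was 0.282, and of the members named here Nfe2 and Apoe lay below it. Kel had 50.8 and 51.4 reads per 100 Gata1 reads in control and 32.7 and 31.0 in caNIK. Ermap had 261 and 334 in control and 134 and 187 in caNIK. For both genes the groups did not overlap on this measure, although the log2 fold change of both was positive. Tfrc, Zfpm1, Icam4 and Tspan8 had ratios from 0.628 to 0.447, and Nfe2 and Apoe, whose CPM was also below both controls, had 0.198 and 0.196. Trim58 was lower by a margin of 12.29 against 12.28 reads per 100 Gata1 reads. Add2, Slc25a37 and Bpgm overlapped, with 102 and 155 against 113 and 141 for Add2.

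In all, 14 of the 28 members other than Gata1 had both caNIK values above both control values, 9 had both below, and 5 overlapped. Over all tested genes, 6.38% were above and 74.7% below. Late genes had 9 above, 4 below and 3 overlapping, and regulators other than Gata1 had 1, 2 and 2. Per 100 Klf1 reads, 12 members were above and 8 below, against 6.11% and 68.0% of all tested genes, and Hemgn, Car2 and Trim58 then overlapped. These ratios were not tested, and an exact two-sided permutation test of 2 against 2 libraries cannot go below p = 0.333.

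**Figure D4:**
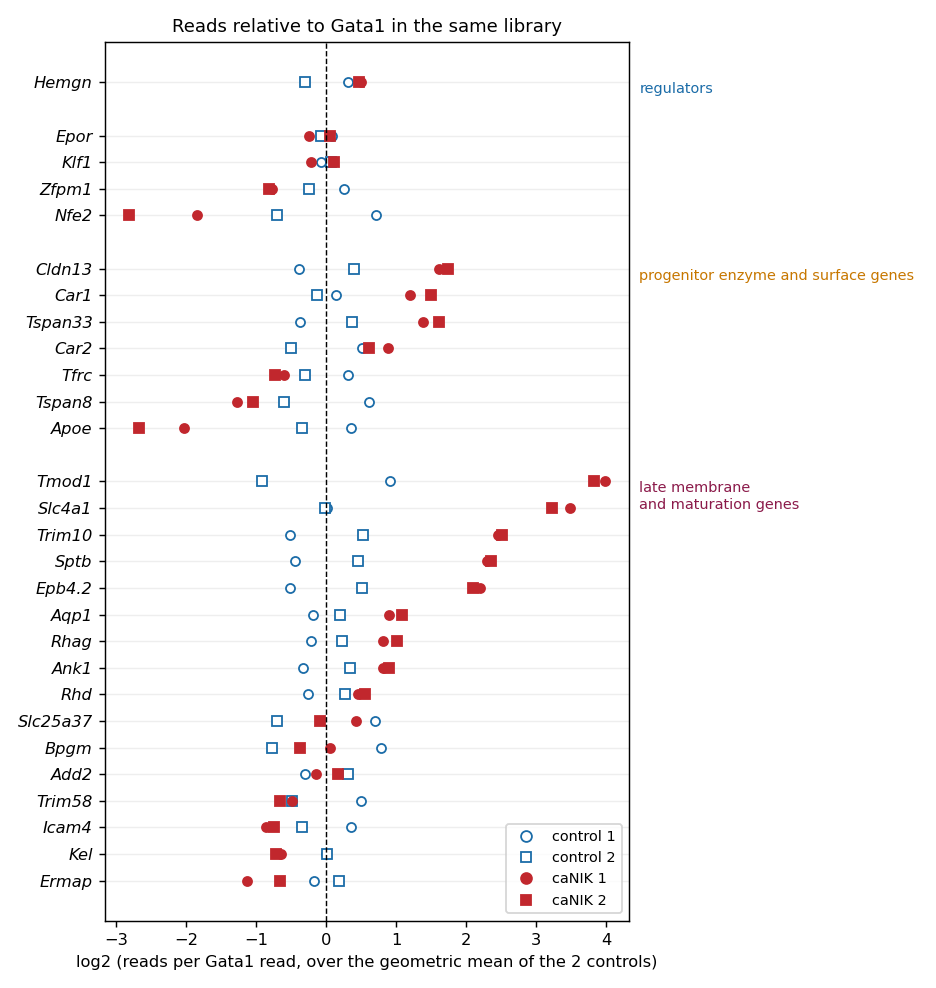
Reads of each member per Gata1 read of the same library, as log2 over the geometric mean of the 2 controls; open symbols are control, filled symbols caNIK, circles replicate 1 and squares replicate 2. Tmod1, Slc4a1, Trim10, Sptb and Epb4.2 lie farthest to the right in caNIK, Klf1 and Epor stay near 0, and Nfe2 and Apoe lie farthest to the left.

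Gata1, Zfpm1 and Nfe2 are also expressed by megakaryocytes, and Gata1 by mast cells. Beside shares of 13.8% higher and 8.21% lower over all tested genes, 9 of 12 mast cell and basophil markers were higher and 0 lower. Their summed level was 789 and 908 CPM in control and 3704 and 2164 CPM in caNIK. Replicate 2 was thus the higher library in control, and replicate 1 in caNIK. Most of the control sum was Kit, which HSPC also express and which did not pass. Without Kit, a split chosen after the values were seen, the sums were 179 and 295 CPM against 3146 and 1658 CPM. Fcer1a, part of the IgE receptor, had no read in control replicate 1 and 2 reads in control replicate 2, against 195 and 77 in caNIK. Of 11 tested megakaryocyte markers, 3 were higher and 2 lower, with sums of 290 and 407 CPM in control and 656 and 507 CPM in caNIK. Gp6 had no read in control and 1 read in each caNIK library, and Clec1b had none in control replicate 1. Macrophage markers, which bear on Apoe, had 3 of 12 higher and 0 lower, with sums of 62.1 and 122 CPM in control and 308 and 506 CPM in caNIK, and Marco had no read in control replicate 1. Vcam1, which other cells also express, made up most of the caNIK sums, and without it they were 124 and 168 CPM against 55.0 and 101 CPM in control. Mrc1 and Cd163 lay below both controls in both caNIK libraries and did not pass. The part of these cells in the values of the members was not tested. Endothelial markers had 0 higher and 2 lower of 9, neutrophil markers 5 and 2 of 9, B cell markers 0 and 4 of 8, and T and NK cell markers 1 (11.1%, near the share of all genes) and 0 of 9.

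Other genes of the lineage were followed in 4 lists set by role, whose counts stand beside the 13.8% higher and 8.21% lower of all tested genes; differences between the lists were not tested. Of 22 factors that act with or beside GATA1, 3 were higher (13.6%, near that share), 6 lower (27.3%) and 13 did not pass (median -0.23). By smallest p these were Lmo2, a bridging protein of the GATA1 complex (-1.32 ± 0.14), the chromatin reader gene Mllt3 (1.22 ± 0.15), and Gata2 (1.30 ± 0.22), which precedes Gata1 in progenitors and also acts in mast cells. Of 18 tested genes of erythropoietin signalling, 8 were higher (44.4%) and 2 lower (11.1%; median 0.39). The hormone gene Epo had no read in any library. Jak2, the kinase on the receptor, was at 94.9 and 99.7 CPM in control and 261 and 231 CPM in caNIK (1.34 ± 0.15). Socs2, a feedback inhibitor of cytokine receptors, had 2.54 ± 0.22. Fam132b, erythroferrone, the hormone by which erythroblasts lower hepcidin, was at 1.09 and 3.96 CPM in control and 53.0 and 102 CPM in caNIK (4.91 ± 0.60).

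Of 24 further red cell membrane genes, 10 were higher (41.7%) and 0 lower (median 0.47). Tmcc2 rose by 4.09 ± 0.24, Mpp1, the membrane protein p55, by 3.04 ± 0.24, and Bcam, which carries the Lutheran blood group, by 1.88 ± 0.17. Without caNIK replicate 2, 5 were higher and 1 lower. Of 22 further maturation genes, 9 were higher (40.9%) and 0 lower (median 0.59). Among them were Ube2l6, a conjugating enzyme (1.90 ± 0.16), Fam46c (3.20 ± 0.29) and Bnip3l, which marks mitochondria for removal in reticulocytes (1.16 ± 0.16). Every one of these 12 named genes was past the threshold, and their edgeR adjusted p ran from 2e-04 (Tmcc2) to 0.0084 (Gata2).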

How the data were processed

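Per the file headers, the deposited tables hold raw whole-number counts, 1 row for each gene symbol. Tools and a build are listed in the submitters' processing notes without role or order: FastQC, featureCounts 1.5.0, TopHat2 2.1.0, DESeq2 1.10.1 and mm9. No source used here states the annotation, the strand setting or how multi-mapping reads were counted, so reads of overlapping or antisense genes may be mixed. Groups and replicate numbers came from the sample titles.

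The tests used edgeR 4.0.16 under R 4.3.3 (filterByExpr, TMM factors, quasi-likelihood F test with group as its only term, Benjamini-Hochberg adjustment over 14191 tested genes, threshold 0.05). SE was taken from the F statistic. Alternatives were DESeq2 1.42.0, median-of-ratios factors, library totals, other filters, the replicate number as a block, and each library left out. Where 1 library remained in a group, it was assumed to vary like the pair of the other group. The members and lists were chosen with earlier results of these data known. All members were named, with the 3 smallest p among called genes of each further list; Cd34, Hlf, Fcer1a, Gp6, Clec1b, Marco, Kit, Vcam1, Mrc1, Cd163 and Epo were named after their values were seen. Promoter sequences and coordinates are from RefSeq on GRCm38.p6, a build other than that of the counts, and were used for sequence alone. Some HSPC markers are not reported here by name.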

Additional observations from a re-analysis of the deposited data

How the results depend on the processing

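With 2 libraries in each group, counts of calls moved with the libraries used. Over each library left out in turn, calls numbered 10 to 25 for the 29 members, 1 to 6 for the regulators, 2 to 6 for the progenitor enzyme and surface genes and 7 to 15 for the late genes. They numbered 6 to 12 for the GATA1 partner factors, 6 to 13 for the other membrane genes, 7 to 13 for the other maturation genes, 7 to 10 for erythropoietin signalling and 2604 to 3174 over all genes, where 3129 passed with all libraries. Medians of log2 fold changes ran from 1.0 to 2.54 for regulators, 2.26 to 2.81 for progenitor genes and 1.75 to 3.57 for late genes. Ermap turned from 0.76 to -0.00043 without caNIK replicate 2, and reached 1.96 without control replicate 2. DESeq2 called 5 regulators (4 higher, 1 lower) and 14 partner factors (6 higher, 8 lower), beside 16.4% higher and 10.4% lower of all genes. A filter of at least 1 read in any library called 6 regulators (5 higher, 1 lower) and 14 partner factors (6 higher, 8 lower). It called 24 members (23 higher, 1 lower), beside 13.4% higher and 8.17% lower of all genes. With the replicate number as a block, 27 members were called (26 higher, 1 lower) and 6 regulators (5 higher, 1 lower). That setting also called 15 partner factors (6 higher, 9 lower) and 15 other maturation genes (14 higher, 1 lower). Of all genes, it called 17.6% higher and 12.4% lower. Numbers 1 and 2 are not stated to pair libraries; replicate differences of the groups correlated at 0.213 across genes. Of 290 pairs of a member and an alternative, 235 kept direction and call, 41 gained the call, 13 lost it and 1 reversed. Median-of-ratios factors kept the calls of all 17 called members.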
